A study of Mus musculus with 34 samples.

Results

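The genes described here are the Wnt ligands, their receptors and co-receptors, the secreted antagonists, the R-spondins and 4 proteins that act inside the cell, taken by gene name from the arrays as all symbols of the Wnt, Fzd, Sfrp, Dkk, Rspo and Ror families together with Wif1, Lrp5, Lrp6, Axin1, Axin2, Lef1 and Tcf7. They were 50 genes read by 60 probes, of which 46 genes passed the filter on dim probes and stood among the 19408 genes tested. Expression was measured on 34 single-colour arrays of mouse cells, 2 arrays in each of 17 groups. Every group was of CD1 strain and carried the aMHC-GFP genotype, a green fluorescent reporter under the promoter of the cardiomyocyte gene Myh6, and the labels name no sort on that reporter. The induced cardiomyocytes (iCM) were cardiac fibroblasts (CF) 4 weeks after infection with a retrovirus that carries Mef2c, Gata4 and Tbx5 (MGT) in one transcript. Their label names neonatal cardiac fibroblasts as the source cells. The time course held CF infected with MGT or with LacZ on days 3, 5, 7, 10 and 14, and the cultured CF it started from on day 0 (CF D0). Fibroblasts were also turned into induced pluripotent stem cells (iPSC) with Oct4, Sox2, Klf4 and cMyc, and cardiomyocytes were then differentiated from iPSC1 (day 13) and iPSC2 (days 9 and 29). Each of these names stood for 1 line, and line and day differed together. The primary cells were neonatal cardiomyocytes (neoCM) and neonatal cardiac fibroblasts (neoCF), both freshly isolated from pups at postnatal day 1.5. The iCM and the iPSC-derived cardiomyocytes were kept in a serum-free medium with ascorbic acid, VEGF, bFGF and FGF10.

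Wnt proteins are secreted lipid-modified ligands that bind Frizzled receptors. With the co-receptors Lrp5 or Lrp6 this binding stabilises beta-catenin, which enters the nucleus and acts with DNA-binding proteins such as Lef1 and Tcf7. Ligands such as Wnt5a and Wnt11 mostly signal instead through Ror receptors and the planar polarity branch. Secreted Frizzled-related proteins (Sfrp) and Wif1 bind the ligands, Dickkopf proteins such as Dkk1 bind Lrp5 and Lrp6, and R-spondins raise signalling by keeping Frizzled receptors at the cell surface. In the heart the pathway is known for its stage-dependent part in forming cardiac mesoderm and cardiomyocytes.

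Levels are given as log2 array intensity relative to the 75th percentile of the same array, so that a difference of 1 is 2-fold. A level says nothing about other genes, because each probe has its own brightness, and levels are compared only for 1 gene between groups. A difference is a log2 change of the first-named group minus the second, with its standard error (SE) from limma's fit over all 34 arrays. A gene was called at a Benjamini-Hochberg adjusted p under 0.05 over all genes tested together with a change of at least 2-fold. Where no array of the lower side was well above background, the change is also given as an "at least" fold against the lowest signal that counted as above background. Each group had 2 arrays, and nothing in the labels says whether they came from separate cultures or animals, so the p-values measure the spread between these arrays.

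Arrays of the same group correlated over all genes at 0.984 to 0.997 in 16 groups, and 0 to 7 of the 46 members lay 2-fold or more apart. The exception was the iPSC2-derived cardiomyocytes on day 29, with a correlation of 0.895 and 28 of 46 members 2-fold apart (42.3% of all genes). In that group the mean level of the 5 tested endoderm markers was 1.48 on array 1 and -6.33 on array 2, and that of 8 fibroblast markers was 3.74 and -1.48. Since all groups share one estimate of the spread, this widened the SE of some members everywhere: that of Sfrp2 was 1.19 with these arrays and 0.24 without them. Counts are therefore given both ways, next to the MGT comparisons and, for the other comparisons, in the section on processing at the end. Cardiomyocyte markers (8 genes) averaged 4.45 and 4.42 in iCM, 7.47 and 7.58 in neoCM, and 2.96 and 2.34 in neoCF, where all 8 were above background on both arrays, so the cells labelled fibroblasts also held cardiomyocyte transcripts. Of the delivered factors, read without knowing whether their probes lie in the delivered part, Mef2c was 6.78 higher in MGT than in LacZ cells on day 3 and 2.28 higher on day 14. Gata4 (changes of 0.16 to 0.52) and Tbx5 (-0.59 to 0.54) were not called on any day, so neither probe showed a 2-fold difference between MGT and LacZ cells. The Gata4 arrays of MGT cells still lay above those of LacZ cells on each day, with a limma adjusted p of 0.042 on day 7. In these bulk samples fewer cells of a type and less RNA per cell cannot be told apart.

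Of the members, 17 of 19 ligands, 3 of 4 R-spondins, all 14 receptors and co-receptors, 8 of 9 antagonists and all 4 intracellular proteins were tested. The 4 that were not tested were Dkk4, above background on 2 arrays, Wnt8a, above background on 4, and Wnt3a and Rspo4, above background on 0 of 34. The filter kept a probe when both arrays of some group were above background, so a member kept through a single group was favoured to differ there. Wnt2b was kept through neoCF alone. Wnt3 was kept through the iPSC1-derived cells of day 13 alone, so its calls in comparisons with that group were favoured by the filter. Signal was above background on all 34 arrays for 23 members. Across the 16 comparisons, 4 tested members were called in none: Axin1, Wnt2b, Wnt7b and Wnt8b.

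The promoter sequences of 33 of the 50 members were found in the RefSeq table for GRCm38.p6, with 40 listed start sites. The 250 bases before each start were searched on both strands for letters that the factors of this study and of this pathway are known to bind. These were CTTTGA or CTTTGT for TCF/LEF proteins, AGATAA or TGATAA for GATA factors, AGGTGTGA for T-box factors, and the MEF2 motif with T or A at its variable position. TCF/LEF letters were in 10 of 40 member promoters (25.0%), against 27.6% of all 32851 promoters. GATA letters were in 5 of 40 (12.5%), against 16.6% of all. T-box and MEF2 letters were in 0 of 40, against 1.12% and 0.244% of all, shares too low for 40 promoters to show a difference. The median share of G and C letters was 66.8% in the member promoters and 52.4% in all promoters. The part of this base content in the motif shares was not tested. A match is a run of letters and says nothing about binding. The promoters of 3 members that were higher in MGT cells are printed to show what such a window holds: Wif1 as the member with the widest change, Lef1 as the one whose MGT effect was called larger on day 10 than on day 3, and Fzd7 as a receptor with a single match. Capitals mark the matches, which can be read on the other strand.
Wif1, chr10:121033754-121034003, plus strand, no match: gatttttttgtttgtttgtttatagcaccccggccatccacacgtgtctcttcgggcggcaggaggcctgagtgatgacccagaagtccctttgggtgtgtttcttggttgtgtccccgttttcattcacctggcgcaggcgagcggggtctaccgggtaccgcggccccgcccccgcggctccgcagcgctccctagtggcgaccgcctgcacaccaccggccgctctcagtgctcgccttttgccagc
Lef1, chr3:131156044-131156293, plus strand, 3 TCF/LEF matches that begin 180, 146 and 120 bases before the start and 1 GATA match at 195: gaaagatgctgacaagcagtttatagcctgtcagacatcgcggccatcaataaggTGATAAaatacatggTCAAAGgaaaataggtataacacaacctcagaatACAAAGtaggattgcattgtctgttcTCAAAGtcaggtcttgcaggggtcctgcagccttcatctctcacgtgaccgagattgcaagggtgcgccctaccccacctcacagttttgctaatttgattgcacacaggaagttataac
Fzd7, chr1:59481897-59482146, plus strand, 1 TCF/LEF match that begins 129 bases before the start: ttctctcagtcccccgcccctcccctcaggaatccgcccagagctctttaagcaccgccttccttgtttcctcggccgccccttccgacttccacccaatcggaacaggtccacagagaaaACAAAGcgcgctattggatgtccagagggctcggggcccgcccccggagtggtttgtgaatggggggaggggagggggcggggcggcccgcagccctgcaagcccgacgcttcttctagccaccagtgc
Lef1 has 4 listed starts in the table, and the windows of its other starts held no match. The data do not say which start was used in these cells.

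The first set of comparisons asked what MGT does to these genes against a LacZ virus on the same day. On day 3, 7 of 46 members were called, 6 higher and 1 lower, or 15.2%, against 5.05% of all genes (3.19% higher, 1.86% lower). On day 5, 17 were called, 11 higher and 6 lower, or 37%, against 8.29% of all genes (4.82% higher, 3.46% lower). With the authors' log2 values 11 were higher and 3 lower on day 5, and on day 3 6 were higher and 0 lower. On day 7, 15 were called, 10 higher and 5 lower, against 8.77% of all genes (5.26% higher, 3.51% lower), and without LacZ replicate 1 the count was 9, 6 higher and 3 lower. On day 10, 16 were called, 10 higher and 6 lower, against 8.61% of all genes (5.3% higher, 3.31% lower). On day 14, 16 were called, 9 higher and 7 lower, against 13% of all genes (5.93% higher, 7.05% lower). The day 14 split moved with the scaling: with normexp background correction 6 members were higher and 8 lower, and over all genes 1335 were higher and 760 lower after quantile normalization and 1129 and 771 with the authors' log2 values, against 1150 and 1369 here. The median change over the members stayed between -0.27 and 0.02, beside -0.12 to -0.05 over all genes. Members called higher and members called lower were thus found on each of the 5 days. With the day 29 iPSC2 arrays left out of the fit, 7 members were higher and 6 lower on day 3, 11 and 7 on day 5, 10 and 7 on day 7, 10 and 11 on day 10 and 9 and 13 on day 14. All calls made with these arrays were kept, but lower calls then outnumbered higher ones on days 10 and 14. In all, 23 members were called on at least 1 day, 4 on all 5 days (Wif1, Wnt5b and Fzd6 higher, Wnt4 lower), and 1 in both directions (Rspo3). Up to day 10 the cells of either virus were hybridised on a common slide, but on day 14 they were not, so slide and virus cannot be told apart on day 14.

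**Figure D1:**
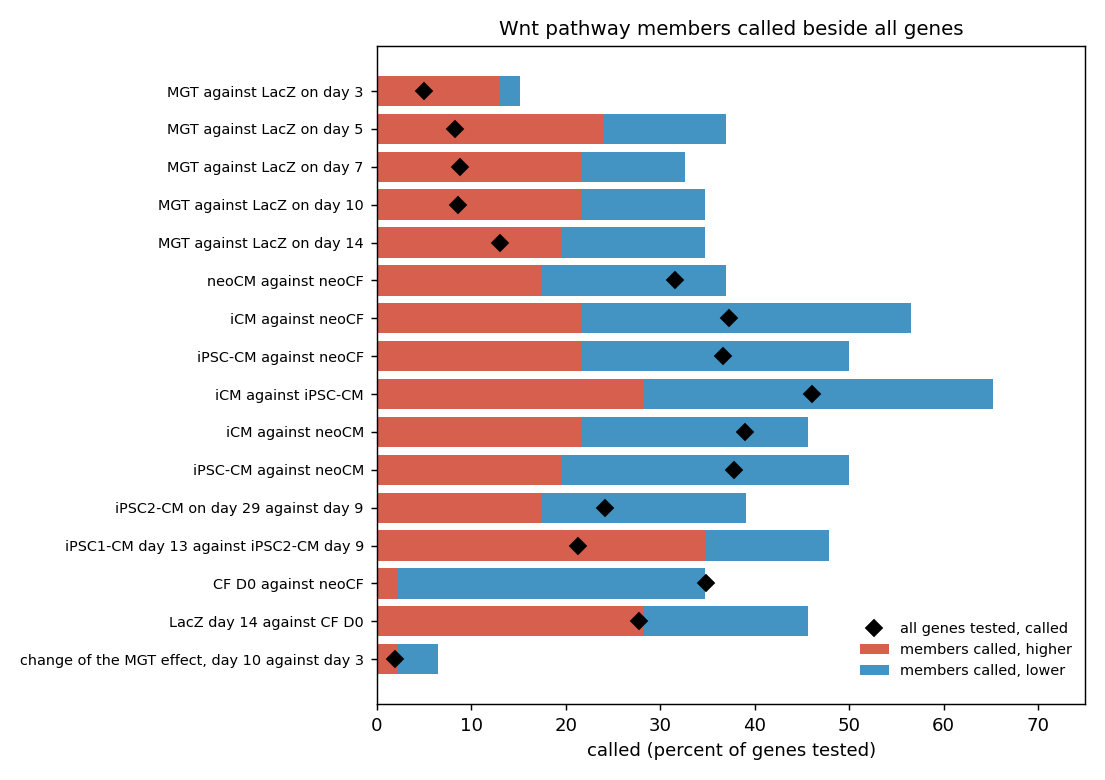
Share of members (46 tested) and of all genes (19408 tested) called in each comparison, in percent on the horizontal axis, with bars for members (red higher, blue lower, stacked) and a diamond for all genes. The member share exceeds the background on each MGT day, and both are close to each other in CF D0 against neoCF, at 34.8% and 34.9%.

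The member with the widest change was the antagonist Wif1, a secreted protein that binds Wnt ligands. Its level in MGT cells was -0.17 and -0.12 on day 3, 2.77 and 2.72 on day 5, 3.17 and 2.66 on day 7, 3.06 and 2.86 on day 10, and 2.30 and 2.13 on day 14. In LacZ cells it lay between -7.84 and -5.66 on the 10 arrays and was above background on none of them. The change was 7.01 ± 0.5 on day 3 (SE, n = 2 each, adjusted p = 1e-08), 9.24 on day 5, 9.5 on day 7, 9.63 on day 10 and 8.55 on day 14. Because LacZ cells gave no measured level, the changes are bounds of at least 47.1-fold on day 3, at least 136-fold on day 5, at least 389-fold on day 7, at least 227-fold on day 10 and at least 103-fold on day 14. On days 5 to 10 the MGT arrays lay between 2.66 and 3.17, beside 3.06 and 2.59 in neoCM. The probe for Wif1 lies at chr10:120537079-120537138 in the build mm9 that the arrays are annotated with.

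The Sfrp antagonists moved both ways. Sfrp1 stood at -2.83 and -2.77 on day 5, -2.51 and -2.13 on day 7, -3.39 and -2.71 on day 10 and -3.77 and -3.14 on day 14 in MGT cells. LacZ cells had 0.01 and -0.08 on day 5, 1.08 and 1.05 on day 7, 0.82 and 0.90 on day 10 and 1.34 and 0.98 on day 14, so the groups did not overlap on any of these days. Sfrp1 fell by 2.77, 3.38, 3.91 and 4.62 (SE 0.66, adjusted p between 3.6e-05 and 0.0062). On day 3 its change of -2.02 was not called, with -1.65 and -1.39 in MGT cells against 0.47 and 0.53 in LacZ cells. Sfrp2, another Frizzled-related protein, had -2.84 and -3.13 in MGT cells on day 5 against 0.78 and 0.67 in LacZ cells. Its change was -3.71 ± 1.19 on day 5, -4.0 on day 7 and -3.7 on day 10, with adjusted p of 0.043, 0.027 and 0.042. Each of these 3 Sfrp2 calls was lost when any single array of its comparison was left out, with a change that stayed between -4.09 and -3.18 under all alternatives. Without the day 29 iPSC2 arrays Sfrp2 was lower also on day 3 (-1.62, adjusted p = 4.7e-05) and on day 14 (-2.78, adjusted p = 2.4e-08). Sfrp4 was lower on day 5 (-2.31 ± 0.73) and day 7 (-2.62), calls that were also lost without any 1 array of theirs. On days 3, 10 and 14 its changes of -1.92, -2.08 and -1.64 were not called. The Sfrp4 arrays of MGT and LacZ cells did not overlap on any day. Sfrp5 went the other way: it had -2.35 and -2.44 in MGT cells on day 7 against -4.73 and -5.13 in LacZ cells. The changes of Sfrp5 were 2.54 ± 0.76 on day 7, 2.61 on day 10 (at least 4.09-fold) and 2.67 on day 14 (at least 4.24-fold). The Sfrp5 calls of days 7 and 10 were lost without any 1 array, and that of day 14 without MGT replicate 1 or LacZ replicate 1.

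Among the Dickkopf genes the evenest change was in Dkk3, a family member whose part in Wnt signalling is less settled. Dkk3 had 1.70 and 1.45 on day 5, 2.50 and 2.82 on day 7, 2.44 and 2.41 on day 10 and 2.53 and 2.54 on day 14 in MGT cells. In LacZ cells it had 3.43 and 3.49 on day 5, 4.31 and 4.57 on day 7, 4.02 and 3.85 on day 10 and 4.28 and 4.28 on day 14. MGT cells were lower without overlap, with changes of -1.89, -1.78, -1.51 and -1.75 (SE 0.18, adjusted p at most 2.9e-06). Dkk2 was lower on day 5 alone by this test (-3.07 ± 0.78, at least 2.28-fold), where LacZ cells were above background on 1 of 2 arrays and MGT cells on 0, and the call was lost without replicate 1 of either group, with normexp, with the authors' log2 values and with only the arrays compared in the fit. Without the day 29 iPSC2 arrays Dkk2 was also called lower on day 3 (-1.69, adjusted p = 0.043) and day 7 (-2.06, adjusted p = 0.01). Dkk1, a well known inhibitor of Lrp5 and Lrp6, was not called on any day, but without the day 29 iPSC2 arrays it was called lower on day 14 (-3.87, adjusted p = 0.023). Its arrays disagreed within groups: it had -0.77 and -7.33 in MGT cells on day 10 against -1.62 and -3.17 in LacZ cells.

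**Figure D2:**
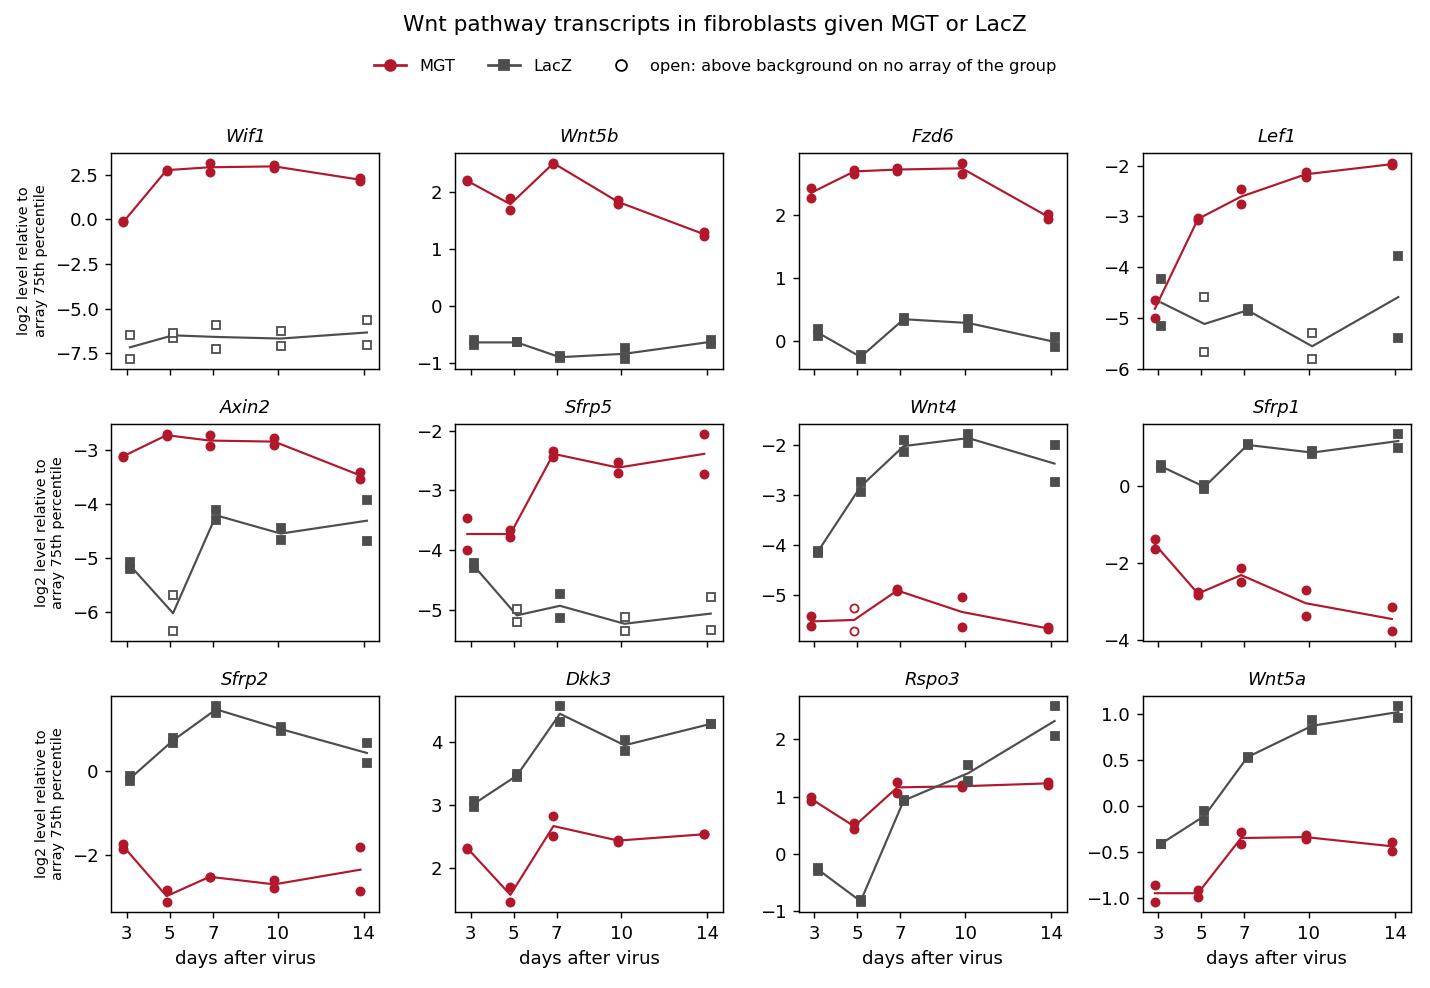
Log2 levels of members in MGT cells and LacZ cells on days 3, 5, 7, 10 and 14, 1 panel per gene, with each of the 2 arrays per group as a point lines through the group means, and open symbols where no array of the group was above background. Wif1 reaches at most -5.66 on the LacZ arrays, and at least 2.13 on the MGT arrays of days 5 to 14.

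The ligands Wnt5b and Wnt4 were called on all 5 days, in opposite directions. Wnt5b, a ligand close to Wnt5a, had 2.21 and 2.20 on day 3, 1.90 and 1.68 on day 5, 2.50 and 2.52 on day 7, 1.86 and 1.79 on day 10 and 1.23 and 1.30 on day 14 in MGT cells. In LacZ cells it stayed between -0.94 and -0.60 on all 10 arrays. The changes were 2.84, 2.42, 3.41, 2.67 and 1.89 (SE 0.29, adjusted p at most 7.3e-05). CF D0 had 1.07 and 0.93, between the levels of the MGT and the LacZ arrays. Wnt4, a ligand with roles in kidney and gonad development, had -5.42 and -5.63 on day 3, -5.72 and -5.27 on day 5, -4.92 and -4.89 on day 7, -5.64 and -5.04 on day 10 and -5.65 and -5.69 on day 14 in MGT cells. In LacZ cells it had -4.12 and -4.16 on day 3, -2.93 and -2.73 on day 5, -1.89 and -2.14 on day 7, -1.78 and -1.95 on day 10 and -2.00 and -2.74 on day 14. Its changes were -1.39, -2.67 (at least 4.57-fold lower), -2.89, -3.48 and -3.3 (SE 0.26). CF D0 had -5.60 and -5.65, above background on neither array, so the day 14 MGT cells were near that starting level and the LacZ cells above it. The day 3 call of Wnt4 was lost with normexp background correction and with the authors' log2 values.

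Other ligands changed on some days. Wnt7a was above background on both MGT arrays and on no LacZ array on days 5 to 14, with changes of 3.42 (at least 2.25-fold), 2.31 (at least 2.53-fold), 2.4 (at least 1.69-fold) and 2.07 (at least 1.03-fold). The Wnt7a calls of days 7, 10 and 14 were lost when any 1 of their arrays was left out. Wnt5a, which signals through Ror2, had -0.32 and -0.36 on day 10 in MGT cells against 0.93 and 0.82 in LacZ cells, a change of -1.21 ± 0.28 (adjusted p = 0.0047). On day 14 Wnt5a was lower too (-1.47, adjusted p = 0.00074), again with no overlap. Wnt10b was called lower on day 10 (-2.66 ± 0.78), but its LacZ arrays stood at -0.72 and -3.25, and the call was lost without either MGT array or without LacZ replicate 1. Wnt16 was higher on day 14 (1.29 ± 0.26).

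Of the R-spondins, Rspo3 was called in opposite directions early and late after MGT. Rspo3, which binds Lgr receptors, had 0.99 and 0.92 on day 3 and 0.53 and 0.43 on day 5 in MGT cells, against -0.30 and -0.25 on day 3 and -0.85 and -0.81 on day 5 in LacZ cells. It was higher by 1.23 ± 0.27 on day 3 and 1.31 on day 5, passed no test on days 7 and 10, and was lower on day 14 (-1.09). On day 14 it had 1.2 and 1.26 in MGT cells against 2.59 and 2.05 in LacZ cells, and that call was lost without LacZ replicate 1. Rspo2 was higher on day 5 (1.44 ± 0.45), a call lost without any 1 array. Rspo1 was not called on any day. It had 1.36 and 1.37 in MGT cells on day 7 against 2.86 and 2.70 in LacZ cells, and in the fit without the day 29 iPSC2 arrays it was called lower on days 5 (-1.2), 7 (-1.42) and 14 (-1.06).

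All receptor calls between days 3 and 10 were higher in MGT cells. Fzd6, a Frizzled best known for planar polarity, had 2.27 and 2.44 on day 3, 2.66 and 2.73 on day 5, 2.75 and 2.71 on day 7, 2.66 and 2.84 on day 10 and 2.02 and 1.94 on day 14 in MGT cells. In LacZ cells its level lay between -0.29 and 0.37 on all 10 arrays. The changes were 2.21, 2.95, 2.38, 2.46 and 2.0 (SE 0.2, adjusted p at most 5.2e-07). Ror2, a receptor for Wnt5a, had 2.47 and 2.35 on day 5 and 2.20 and 2.20 on day 10 in MGT cells, against 1.19 and 1.23 on day 5 and 1.03 and 0.90 on day 10 in LacZ cells. Its changes on days 5 to 14 were 1.2, 1.29, 1.24 and 1.17 (SE 0.15). CF D0 had 2.20 and 2.17, so the MGT cells of day 10 had the level of the starting fibroblasts and the LacZ cells were below it. Fzd7, a Frizzled that acts in early cardiac development, was higher by 1.31, 1.4, 1.13 and 1.19 on days 3 to 10 (SE 0.28). The 2 probes of Fzd7 disagreed, since the dimmer one gave -0.42 on days 3, 5 and 7, -0.29 on day 10 and -0.82 on day 14. Fzd5 was higher by 1.47, 1.42, 1.27 and 1.27 on days 5 to 14, where its other probe gave 0.14, 0.43, 0.84 and 0.07. The Fzd7 calls of days 3 to 10 and the Fzd5 calls of days 5, 7 and 14 were lost when probes were averaged, those of Fzd7 on days 7 and 10 also without LacZ replicate 1, and that of Fzd5 on day 14 also without LacZ replicate 2, with normexp and with only the arrays compared. Ror1, the receptor close to Ror2, was lower on day 14 (-1.76 ± 0.58), a call lost without either MGT array or without LacZ replicate 1. The co-receptors Lrp5 and Lrp6 were not called on any day.

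Inside the cell, Axin2 and Lef1 are both part of the pathway and known targets of beta-catenin in many tissues. Axin2, a scaffold of the complex that degrades beta-catenin, had -3.11 and -3.12 on day 3, -2.73 and -2.70 on day 5, -2.93 and -2.72 on day 7, -2.91 and -2.77 on day 10 and -3.40 and -3.54 on day 14 in MGT cells. In LacZ cells it had -5.07 and -5.20 on day 3, -5.69 and -6.36 on day 5, -4.12 and -4.30 on day 7, -4.66 and -4.44 on day 10 and -3.92 and -4.69 on day 14. It was higher by 2.02, 3.31 (at least 3.07-fold), 1.39 and 1.71 on days 3 to 10 (SE 0.38), and its change of 0.84 on day 14 was not called. A dimmer Axin2 probe gave -0.98, 0.32, 1.25, -0.19 and -0.28 on the 5 days, and averaging both ended the calls of days 3 and 10. The day 7 call was lost without any 1 array. Lef1 had -4.64 and -5.0 on day 3, -3.08 and -3.03 on day 5, -2.46 and -2.76 on day 7, -2.12 and -2.22 on day 10 and -1.94 and -1.99 on day 14 in MGT cells. In LacZ cells it had -4.23 and -5.17 on day 3, -5.67 and -4.58 on day 5, -4.83 and -4.86 on day 7, -5.30 and -5.82 on day 10 and -3.78 and -5.40 on day 14. The groups overlapped on day 3 and not later, and Lef1 was higher by 2.07 (at least 2.43-fold), 2.23, 3.39 (at least 6.49-fold) and 2.63 on days 5 to 14 (SE 0.39). The Lef1 call of day 5 was lost with normexp and that of day 14 with only the arrays compared in the fit. Tcf7 was called lower on day 14, but neither group was above background on any array, so no difference was measured. Axin1 was not called.

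Marker genes of other cell types moved with the virus as well. The mean of 7 endothelial markers was -3.35 and -3.86 in MGT cells on day 7 against -1.24 and -1.51 in LacZ cells, with 4 of 7 called lower. On the other days fewer were called lower: 0 on days 3 and 5, 2 on day 10 and 1 on day 14. Of 7 epicardial markers 3 were higher and 2 lower on day 7, and 3 were higher and 1 lower on days 10 and 14. All 8 cardiomyocyte markers were called higher on days 5 to 14, with means of 4.90 and 4.86 in MGT cells on day 14 against -2.98 and -2.70 in LacZ cells. Fibroblast markers averaged 5.23 and 5.18 against 6.10 and 6.50 on that day, with 2 of 8 called lower, against 0 on days 3 to 10. The part of these cell types in the Wnt genes' changes was not tested.

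A test of whether the MGT effect itself changed between day 10 and day 3 called 3 members, 1 higher and 2 lower, against 1.99% of all genes (1.41% higher, 0.582% lower). With other scalings 2 were higher and 1 lower (quantile) or 2 were higher and 2 lower (normexp, and the authors' log2 values). The effect on Lef1 was 3.51 ± 0.55 larger on day 10 (adjusted p = 0.0008), that on Wnt4 was lower (-2.09 ± 0.37, adjusted p = 0.0023) and so was that on Rspo3 (-1.46 ± 0.38, adjusted p = 0.047). The Rspo3 call was lost when any 1 of its 8 arrays was left out. Without the day 29 iPSC2 arrays, 7 members were called, the added ones being Wnt16 (1.02), Sfrp1 (-1.89), Sfrp2 (-2.08) and Wif1. LacZ cells were above background on no array for Wif1 on both days and for Lef1 on day 10, so the size of the change is not measured for these 2 genes.

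Part of what separates MGT and LacZ cells also changed in culture without MGT. LacZ cells on day 14 were compared with CF D0, and 21 members were called, 13 higher and 8 lower, against 27.8% of all genes (15% higher, 12.8% lower), and with normexp 12 were higher and 4 lower. All 3 tested R-spondins were higher: Rspo3 had 2.59 and 2.05 in LacZ cells on day 14 against -1.04 and -1.06 in CF D0 (3.38 ± 0.27). Rspo1 had 2.24 and 1.94 against -1.3 and -1.2 (3.34 ± 0.74), and Rspo2 had -0.89 and -1.85 against a signal below background, at least 12.1-fold higher. Wnt4 was at least 7.71-fold higher, with -2.00 and -2.74 on day 14. The antagonists Sfrp4 (3.7 ± 0.73) and Dkk3 (2.4 ± 0.18) were higher too. On the other side, the receptor Fzd9 fell by 3.79, with -4.26 and -4.49 in LacZ cells against -0.58 and -0.59 in CF D0. Ror2 had 0.40 and 0.10 in LacZ cells against 2.20 and 2.17 in CF D0 (-1.94 ± 0.15). Lef1 (-2.04 ± 0.39, lost with normexp and with only the arrays compared), Tcf7 (at least 2.79-fold) and Wif1 (at least 1.24-fold) were lower as well. Markers moved too: 5 of 7 macrophage, 4 of 7 smooth muscle and pericyte and 4 of 7 epicardial markers were higher in LacZ cells of day 14. Among smooth muscle and pericyte markers 1 was lower, and among epicardial markers 2 were. Of endothelial markers 5 of 7 were lower and 1 higher, and of cardiomyocyte markers 6 of 8 were lower and 1 higher. Their part was not tested. These groups lay on 1 slide.

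CF D0 and neoCF are both cardiac fibroblasts, but CF D0 was cultured and neoCF freshly isolated. CF D0 against neoCF gave 16 calls, 1 higher and 15 lower, or 34.8%, against 34.9% of all genes (17.5% higher, 17.4% lower). The share called was that of all genes, and the direction was mostly down: the median member change was -0.93 against 0.11 over all genes. Wnt9b, a ligand with roles in kidney and heart valve development, was above background on no CF D0 array and had -0.49 and -0.97 in neoCF, at least 24.1-fold lower. Rspo1 had -1.3 and -1.2 in CF D0 against 4.48 and 2.91 in neoCF (-4.94 ± 0.74). Wif1 had -4.31 and -4.02 in CF D0 against 0.02 and 0.24 in neoCF (-4.3 ± 0.5). None of these groups overlapped. Rspo2 (at least 12.2-fold), Wnt4 (at least 9.73-fold) and Wnt2 (at least 5.17-fold) were lower, and Dkk3 fell by 3.05 (SE 0.18). The exception was the ligand Wnt10a, which had -2.07 and -2.24 in CF D0 and no signal above background in neoCF, at least 22.5-fold higher. Marker levels differed between the same samples: all 8 cardiomyocyte markers, 5 of 7 endothelial and 5 of 7 epicardial markers were lower in CF D0. Of 7 macrophage markers 2 were higher and 4 lower, and of 7 smooth muscle and pericyte markers 3 were higher and 3 lower. The part of these cell types and of culture was not tested. Because these fibroblast samples differ so widely, comparisons with neoCF below depend on that choice.

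**Figure D3:**
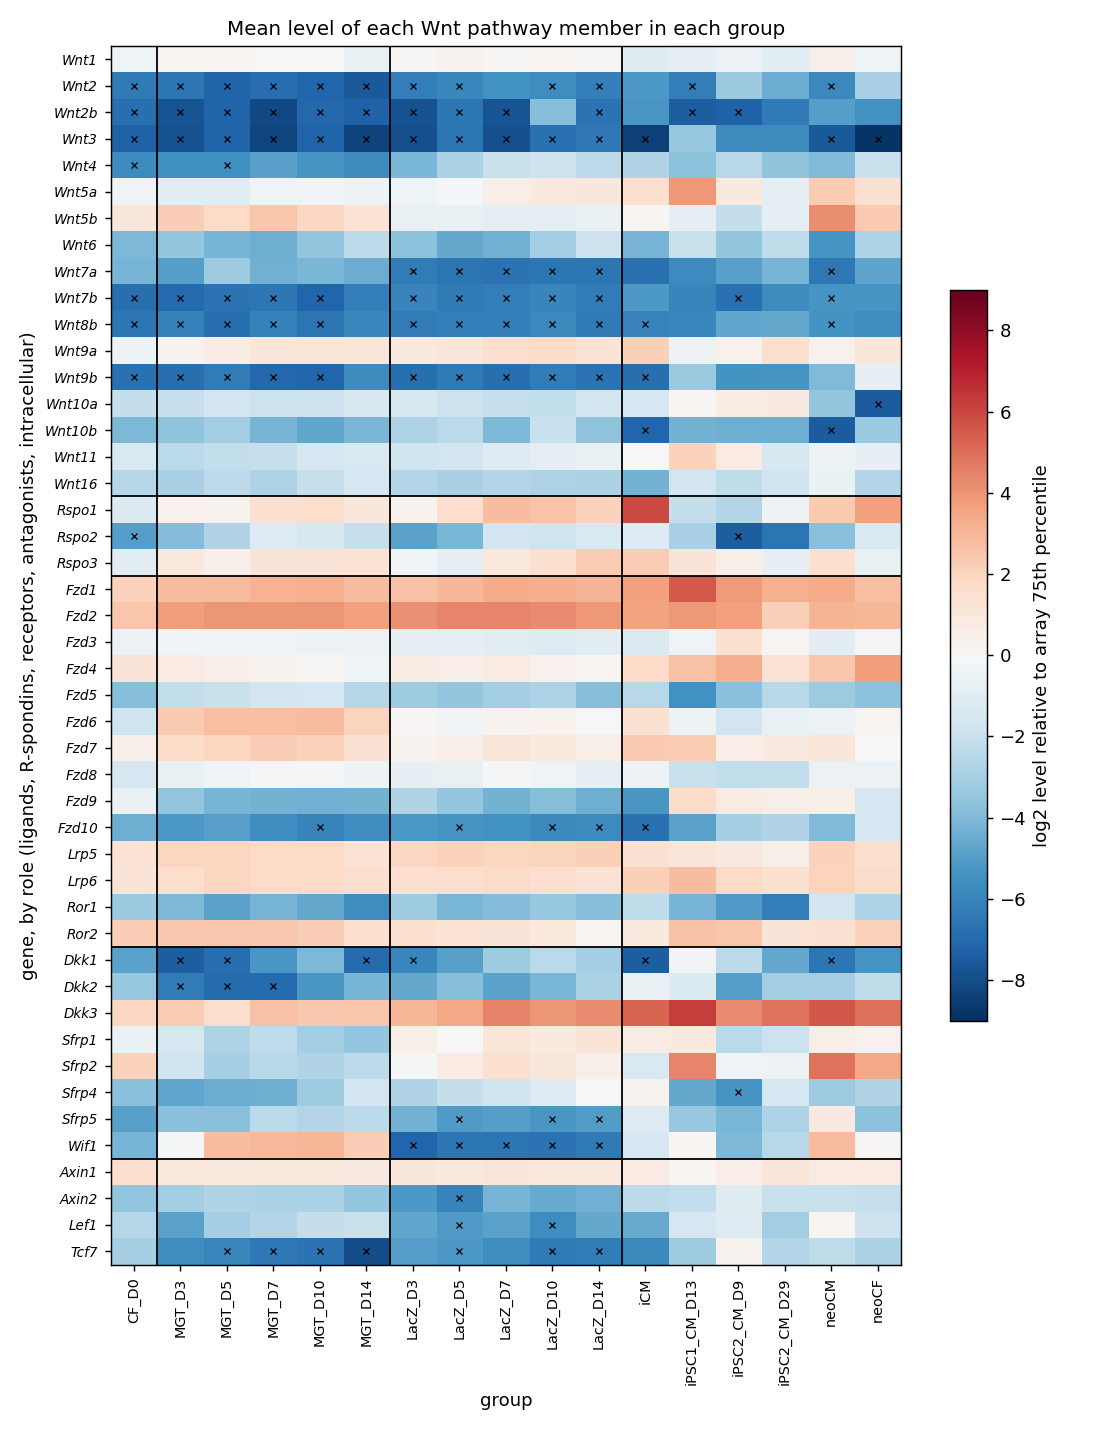
Heat map of the log2 levels (group means of 2 arrays, relative to the 75th percentile) of the tested members, in rows by role, across the 17 groups in columns, with a cross where neither array was above background. Each row shows 1 probe, so colours compare groups within a row and not genes with each other. Rspo1, above background on all arrays, has its highest mean in iCM (5.95) and its lowest in iPSC2 cells of day 9 (-2.67).

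Between the primary cells, neoCM against neoCF gave 17 called members, 8 higher and 9 lower, or 37%, against 31.6% of all genes (15.4% higher, 16.2% lower). With other scaling the split of these calls changed, to 10 higher and 7 lower after quantile normalization, 9 and 6 with normexp, and 11 and 8 with the authors' log2 values. Against CF D0 in place of neoCF, 20 were higher and 4 lower. Among ligands, Wnt5b had 4.22 and 4.13 in neoCM against 2.34 and 2.36 in neoCF (1.83 ± 0.29). Wnt16 had -0.38 and -0.76 against -2.71 and -2.54 (2.06 ± 0.26), and Wnt10a was at least 8.36-fold higher. Lower ligands were Wnt9b, with -4.09 and -3.89 in neoCM against -0.49 and -0.97 in neoCF (-3.26 ± 0.6), Wnt10b (at least 5.38-fold) and Wnt2 (at least 5.98-fold). Wnt6 fell by 2.57 and Wnt4 by 1.9. Of the antagonists, Sfrp5 had 0.88 and 0.70 in neoCM against -3.02 and -4.36 in neoCF (4.48 ± 0.76), and Wif1 had 3.06 and 2.59 against 0.02 and 0.24 (2.69 ± 0.5). No antagonist was called lower. Rspo3 was higher (2.18 ± 0.27), Rspo2 lower (-2.4 ± 0.45). Lef1 had 0.27 and 0.16 in neoCM against -1.76 and -2.02 in neoCF, a change of 2.1 ± 0.39. Fzd9 was higher (2.08 ± 0.31), and Fzd4, the receptor for the ligand Norrin in blood vessels, was lower (-1.28 ± 0.21). Fzd10 and Wnt7a were called lower too, calls lost without any 1 array. All 7 macrophage and 6 of 7 endothelial markers were lower in neoCM, at means of -1.75 and -1.62 against 2.78 and 2.34 for macrophage genes, while 5 of 7 smooth muscle and pericyte markers were higher. The part of these cells was not tested. Against CF D0 in place of neoCF, the changes of Wnt4 (1.69), Wnt9b (2.74), Rspo2 (1.22), Fzd4 (1.29) and Wnt10a (-1.43) turned round and passed the test, while those of Wif1 (6.99), Sfrp5 (5.68), Lef1 (2.77), Wnt5b (3.18), Wnt16 (1.99) and Rspo3 (2.56) kept their direction and their call. The groups lay on different slides, so slide and cell type cannot be told apart.

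The iCM were set against neoCM to see where the reprogrammed cells differ from native cardiomyocytes, and 21 members were called, 10 higher and 11 lower, or 45.7%, against 39% of all genes (18.9% higher, 20.1% lower). Among the ligands, Wnt5b had 0.21 and 0.11 in iCM against 4.22 and 4.13 in neoCM (-4.01 ± 0.29, adjusted p = 6.6e-10). Wnt16 had -4.38 and -4.05 in iCM against -0.38 and -0.76 in neoCM (-3.65 ± 0.26). Wnt1 fell by 1.61 (SE 0.22), whereas Wnt10a (2.02), Wnt9a (1.72) and Wnt4 (1.23) were higher. Wif1 had -1.48 and -1.49 in iCM against 3.06 and 2.59 in neoCM, and so fell by 4.3 (SE 0.5). Sfrp2 had -1.44 and -1.24 in iCM against 4.93 and 4.86 in neoCM (-6.24 ± 1.19), and Sfrp4 had 0.27 and 0.31 against -3.20 and -3.32 (3.54 ± 0.73). Both Sfrp4 arrays of iCM thus lay above those of neoCM, and both Sfrp2 arrays below. Rspo1 had 6.08 and 5.82 in iCM against 2.37 and 2.31 in neoCM (3.61 ± 0.74), and Rspo2 was higher by 2.63. Fzd9 had -5.37 and -5.11 in iCM against 0.67 and 0.46 in neoCM (-5.8 ± 0.31). Fzd6 (1.87) and Fzd7 (1.32, and 0.64 on its dimmer probe, which disagreed above) were higher. Lef1 and Tcf7, the members that act with beta-catenin in the nucleus, were both lower. Lef1 had -4.57 and -4.51 in iCM against 0.27 and 0.16 in neoCM (-4.76 ± 0.39). Tcf7 had -5.88 and -5.78 against -2.36 and -2.21 (-3.54 ± 0.44). Macrophage markers averaged 3.08 and 3.08 in iCM against -1.75 and -1.62 in neoCM (7 of 7 higher), and 6 of 7 epicardial markers were higher and 1 lower. Lower in iCM were 6 of 8 cardiomyocyte, 6 of 7 smooth muscle and pericyte and 5 of 7 endothelial markers, with none of these lists holding a higher one. Their part was not tested. The iCM and neoCM replicate 2 shared a slide, and with slide as a fixed block 19 of the 21 calls held, without those of Fzd10 and Sfrp5.

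Against neoCF, the iCM gave 26 called members, 10 higher and 16 lower, or 56.5%, against 37.3% of all genes (17.8% higher, 19.5% lower). With CF D0 in place of neoCF the balance turned, to 19 higher and 9 lower. Sfrp2 had -1.44 and -1.24 in iCM against 3.59 and 3.37 in neoCF (-4.82 ± 1.19). Sfrp4 had 0.27 and 0.31 in iCM against -2.53 and -2.88 in neoCF (2.99 ± 0.73). Fzd9 had -5.37 and -5.11 in iCM against -1.79 and -1.25 in neoCF (-3.72 ± 0.31). In each case the arrays of the groups were apart. Wnt9b (at least 42.3-fold) and Fzd10 (at least 25.8-fold) were lower and Wnt10a at least 33.8-fold higher. Against CF D0 the change of Wnt9b was -0.06 and that of Wnt10a 0.59, neither called. Rspo3 (2.93), Fzd7 (2.31, but -0.37 on its dimmer probe), Fzd6 (1.14) and Wnt9a (1.1) were higher. The Wnt9a call was lost without neoCF replicate 2, after quantile normalization and with the authors' log2 values. Wif1 fell by 1.61 against neoCF, a call lost without neoCF replicate 2, but was 2.68 higher against CF D0. Fzd4 fell by 2.05, and its change against CF D0 was 0.51, which was not called. In iCM 6 of 7 endothelial markers were lower (median -6.1). Of 8 cardiomyocyte markers 6 were higher and 1 lower. The part of these cells was not tested. The groups shared no slide, so slide and cell type cannot be told apart.

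**Figure D4:**
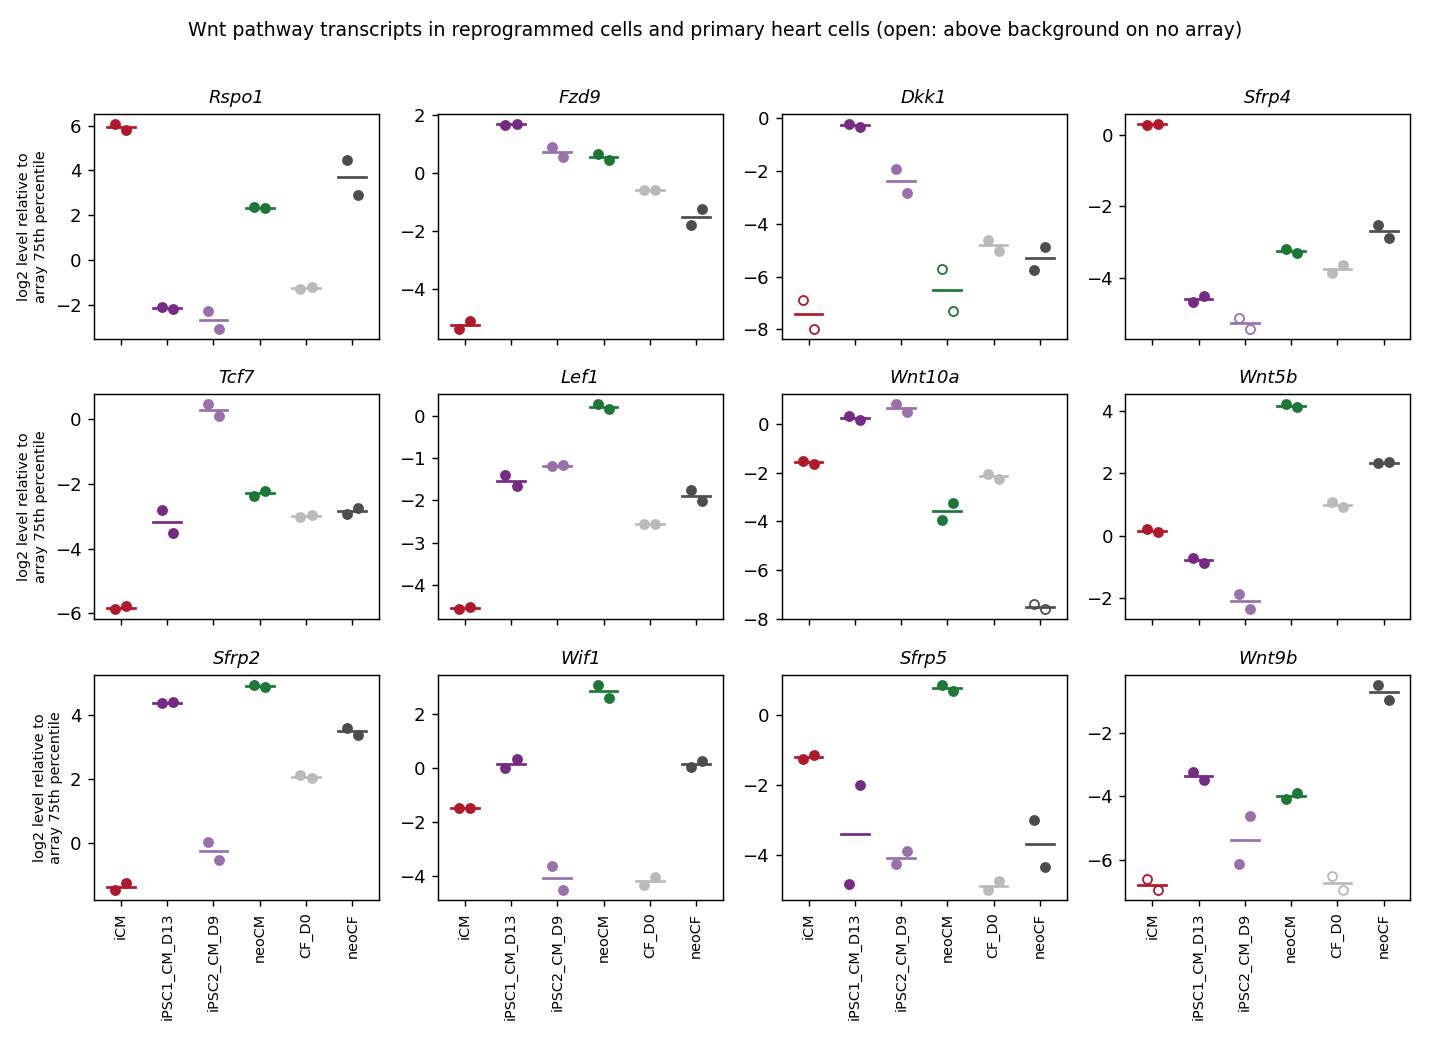
Log2 levels of members in iCM, iPSC1-derived cardiomyocytes of day 13, iPSC2-derived cardiomyocytes of day 9, neoCM, CF D0 and neoCF, with each array as a point (open where neither array of the group was above background) and a line at the group mean. Rspo1 sits at 6.08 and 5.82 in iCM and between -3.07 and -2.09 in the iPSC-derived groups.

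In the comparison of both routes to induced cells, the mean of the iPSC1 (day 13) and iPSC2 (day 9) groups, called iPSC-CM here, was used. iCM against iPSC-CM gave 30 called members, 13 higher and 17 lower, or 65.2%, against 46.1% of all genes (21.7% higher, 24.4% lower). All 3 tested R-spondins were higher in iCM. Rspo1 had 6.08 and 5.82 in iCM against -2.09 and -2.21 in iPSC1 and -2.28 and -3.07 in iPSC2 cells, a change of 8.36 ± 0.64 (n = 2 and 4, adjusted p = 7.4e-10). Rspo2 (4.04) and Rspo3 (1.41) were higher by less. The antagonists divided: Sfrp4 had 0.27 and 0.31 in iCM against -4.68 and -4.52 in iPSC1 and -5.14 and -5.43 in iPSC2 cells (5.23 ± 0.63), and Sfrp5 (2.57) and Dkk2 (2.49) were higher. Dkk1 was above background on no iCM array and on all 4 iPSC-CM arrays, at -0.21, -0.34, -1.93 and -2.85, and was at least 29.4-fold lower in iCM. Sfrp2 was lower (-3.41 ± 1.03), but mostly against iPSC1, since it had 4.37 and 4.40 in iPSC1 and 0.03 and -0.51 in iPSC2 cells. Of 17 ligands 8 were lower in iCM, 2 higher and 7 not called. Among the lower ones Wnt3 (-3.89) passed the filter only through iPSC1 cells, so the filter favoured that call. Those lower also included Wnt16 (-2.21, but -0.31 on its dimmer probe), Wnt10a (-2.02) and Wnt11 (-1.39), a ligand that acts in cardiac development through the non-canonical branch. The ligands higher in iCM were Wnt9a (2.15) and Wnt5b (1.62). Fzd9 had -5.37 and -5.11 in iCM against 1.65, 1.70, 0.89 and 0.55 in iPSC-CM, and fell by 6.44 (SE 0.27, adjusted p = 1.4e-13). Fzd6 (2.46), Ror1 (2.35), Fzd5 (2.17) and Fzd8 (1.64) were higher, and Fzd3 (-1.77), Ror2 (-1.67) and Fzd4 (-1.26) lower. The dimmer probes of Ror1 and Fzd5 gave -0.19 and 0.06, so these increases were seen on 1 probe each. Lef1 had -4.57 and -4.51 in iCM against -1.41, -1.67, -1.18 and -1.17 in iPSC-CM (-3.18 ± 0.34), and Tcf7 was lower too (-4.39 ± 0.38). Fibroblast markers (7 of 8), macrophage markers (7 of 7) and epicardial markers (5 of 7, with 2 lower) were higher in iCM and 5 of 6 pluripotent markers lower. Macrophage markers averaged 3.08 and 3.08 in iCM against -4.65 to -3.97 in iPSC-CM, and the part of these cells was not tested. With the authors' log2 values the split over all genes was 4240 higher and 3170 lower, against 4204 and 4744 here. Calls lost against iPSC1 alone were those of Dkk2, Fzd3, Fzd4, Fzd10, Sfrp1, Wnt5b and Wnt7a, and against iPSC2 alone those of Sfrp2, Wnt6 and Wnt11. The groups lay on separate slides, and route, time and slide cannot be told apart.

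Set against neoCM, the iPSC-CM gave 23 called members, 9 higher and 14 lower, or 50%, against 37.8% of all genes (19% higher, 18.8% lower). The higher ones include Wnt3, which passed the filter only through iPSC1 cells. Wnt5b had -0.71, -0.87, -1.86 and -2.36 in iPSC-CM against 4.22 and 4.13 in neoCM (-5.63 ± 0.25). Wnt10a had 0.33, 0.18, 0.81 and 0.48 in iPSC-CM against -3.92 and -3.24 in neoCM (4.03 ± 0.22). Wnt11 had 2.13, 2.06, 0.87 and 0.67 against -0.44 and -0.42 (1.86 ± 0.1). For each of these 3 ligands every iPSC-CM array lay on one side of both neoCM arrays. Wif1 (-4.77 ± 0.43), Sfrp5 (-4.54 ± 0.66) and Rspo1 (-4.75 ± 0.64) were lower, and Dkk1 was at least 17.3-fold higher. Ror1 fell by 3.02, and Ror2 was higher by 1.2. Against neoCF, the iPSC-CM gave 23 called members, 10 higher and 13 lower, or 50%, against 36.6% of all genes (17.6% higher, 19% lower). With CF D0 in place of neoCF, 21 were higher and 3 lower. Wnt10a was at least 137-fold higher in iPSC-CM than in neoCF (log2 change 2.6 against CF D0), Wnt11 was higher by 2.18 ± 0.1 and Fzd9 by 2.72 ± 0.27, while Rspo1 fell by 6.11 and Wnt5b by 3.8. Against CF D0 the change of Rspo1 was -1.16 (adjusted p = 0.12) and that of Wnt5b -2.45, which was called. Wif1 fell by 2.08 against neoCF, but with iPSC1 cells alone the change was 0.02, and their arrays overlapped those of neoCF. Against CF D0 in place of neoCF Wif1 was higher (2.21). In iPSC-CM 7 of 8 fibroblast and 5 of 7 macrophage markers were lower than in neoCM, and 8 of 8 fibroblast, 7 of 7 macrophage and 6 of 7 endothelial markers were lower than in neoCF. Their part was not tested, and the iPSC-CM shared no slide with either primary group.

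The iPSC-derived groups differed from each other. iPSC1 (day 13) against iPSC2 (day 9) gave 22 called members, 16 higher and 6 lower, or 47.8%, against 21.3% of all genes (12.2% higher, 9.1% lower). Of 8 tested antagonists 5 were higher in iPSC1 and none lower. Sfrp2 had 4.37 and 4.40 in iPSC1 against 0.03 and -0.51 in iPSC2 cells (4.62 ± 1.19). Wif1 had 0.00 and 0.31 against -3.61 and -4.50 (4.21 ± 0.5), and Sfrp1 had 0.79 and 1.00 against -2.50 and -2.29 (3.29 ± 0.66). In all 3 the arrays were apart. Dkk2 (3.78) and Dkk3 (1.91) were higher too. Wnt5a had 3.73 and 4.11 in iPSC1 against 1.26 and 0.47 in iPSC2 cells (3.05 ± 0.28), and Rspo2 was at least 5.15-fold higher. Tcf7 had -2.82 and -3.52 in iPSC1 against 0.47 and 0.11 in iPSC2 cells (-3.46 ± 0.44), and Wnt2 was at least 6.35-fold lower. Fibroblast markers averaged 3.74 and 3.69 in iPSC1 against -0.34 and -0.55 in iPSC2 cells, and their part was not tested. Line and day cannot be told apart.

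On day 29 against day 9 of iPSC2 differentiation, 18 members were called, 8 higher and 10 lower, or 39.1%, against 24.2% of all genes (14.8% higher, 9.39% lower), and with normexp 4 were higher and 9 lower. These counts rest on a pair of discordant arrays: with array weights 2 members were called, and with only the compared arrays in the fit 0 were. The changes with the tightest arrays were in Wnt11, which had -1.58 and -1.33 on day 29 against 0.87 and 0.67 on day 9 (-2.22 ± 0.12), and in Fzd2, which had 2.05 and 2.20 against 3.55 and 3.76 (-1.53 ± 0.11). Lef1 had -3.37 and -2.95 on day 29 against -1.18 and -1.17 on day 9 (-1.99 ± 0.39). Tcf7 had -3.05 and -2.28 on day 29 against 0.47 and 0.11 on day 9 (-2.96 ± 0.44). These 4 genes kept their arrays apart. By contrast, Sfrp2 had 3.12 and -4.08 on day 29 against 0.03 and -0.51 on day 9, with 1 array on each side of the day 9 values. Fzd10 lay on both sides in the same way, with 0.03 and -5.40 on day 29 against -2.76 and -3.18 on day 9.

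Over all 17 groups, the range of group means was 8.62 for Rspo1, 7.88 for Sfrp2, 6.92 for Fzd9 and 6.29 for Wnt5b, with both arrays of the lowest group above background. Wif1, Wnt10a, Tcf7, Dkk1, Wnt9b, Dkk2, Rspo2 and Sfrp5 also had wide ranges, but neither array of their lowest group was above background, so their ranges are not exact and were not ranked. The narrowest ranges were those of Axin1 (1.32), Lrp6 (1.59), Lrp5 (1.6) and Wnt1 (1.61), which were above background on all 34 arrays.

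The pathway genes outside these families were read from a list of 68, of which 64 were tested. Of these, 6 were higher and 2 lower in MGT than in LacZ cells on day 3 (9.38% and 3.12%, beside 3.19% and 1.86% of all genes), and 6 and 3 on days 5 and 7 (9.38% and 4.69%, beside 4.82% and 3.46%, and 5.26% and 3.51%). On day 10 it was 5 and 4 (7.81% and 6.25%, beside 5.3% and 3.31%), and on day 14 3 and 7 (4.69% and 10.9%, beside 5.93% and 7.05%). Sost, a secreted inhibitor of Lrp5 and Lrp6, was higher on all 5 days, by 2.04 to 2.90, and Lrp4, a receptor that presents Sost, was higher by 1.48 to 1.97. Apcdd1, a membrane-bound inhibitor, was lower on all 5 days, with changes of -1.23 to -2.06. The beta-catenin target Nkd1 was higher on days 3 (1.02) and 5 (1.62), and Lgr6, an R-spondin receptor, was lower on day 3 (-1.25) and higher on day 10 (2.14). In iCM against iPSC-CM 6 were higher and 20 lower (9.38% and 31.2%, beside 21.7% and 24.4% of all genes). In iCM against neoCM it was 9 and 16 (14.1% and 25%, beside 18.9% and 20.1%), and in iCM against neoCF 4 and 18 (6.25% and 28.1%, beside 17.8% and 19.5%). In neoCM against neoCF it was 7 and 9 (10.9% and 14.1%, beside 15.4% and 16.2%), both below the shares of all genes. In CF D0 against neoCF 4 were higher and 20 lower (6.25% and 31.2%, beside 17.5% and 17.4%), and in LacZ cells of day 14 against CF D0 14 and 7 (21.9% and 10.9%, beside 15% and 12.8%).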

How the data were processed

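Total RNA was hybridised to 34 single-colour (Cy3) Agilent arrays, 2 for each of 17 groups given by the labels. Intensity values are the processed signals of Agilent Feature Extraction 10.7.3.1, deposited per array by the authors and not normalized between arrays, per the file headers. A table of log2 values deposited by the authors served as an alternative. It followed each array's own log2 intensity at correlations of 0.982 to 0.9956, with column medians of 7.493 to 7.523, and its normalization is not given in the sources used here. The submitters' processing notes name limma.

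Each array's log2 intensity was set relative to its 75th percentile (729 to 3778 intensity units). Control spots and outlier spots (119 to 321 per array) were left out, and no spot was saturated. Of 55681 probes, 43371 were kept because both arrays of some group were above background. Genes were named from the files, updated through accessions in a RefSeq table for 26056 probes, through symbols for 3200 and older symbols for 930, with 25495 unnamed there. The brightest kept probe stood for a gene. Between 28715 and 44881 of 59305 spots per array were above background, and the number of arrays limits the precision. limma fitted all 34 arrays with a mean per group (17 residual degrees of freedom), eBayes moderated the variances, and p-values were adjusted over 19408 genes. In 187 genes an array had no value. The fit was tested on simulated data. Replicate numbers did not pair samples: differences between replicates correlated across groups at -0.07 to 0.14.

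The members, the marker lists and the list of other pathway genes were chosen with earlier results of these data known. Values per array are given for up to 8 called members per comparison with the largest change that were above background on both arrays of the higher side, other called members may be named with their change, and ranges over groups are given for 12 members. Some members are also named after their values were seen, among them those not called. Alternatives were quantile normalization, normexp background correction, the authors' log2 values, other filters and probe rules, slide or replicate as blocks, array weights, smaller fits and leaving out arrays. Leaving out the day 29 iPSC2 arrays was added after seeing the data.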

Additional observations from a re-analysis of the deposited data

Results flagged for a closer look

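The MGT effect (MGT minus LacZ) differed between day 10 and day 3 by a test of that difference for 3 of 46 members. For Lef1 the effect was 3.51 higher on day 10 (log2). For Wnt4 it was -2.09, and for Rspo3 it was -1.46, so both were lower on day 10 than on day 3. Lef1 stood at -4.64 and -5.0 in MGT cells on day 3 and at -2.12 and -2.22 on day 10, against LacZ arrays that were above background on day 3 and not on day 10, so the size of its change is not measured. For Wnt4, MGT cells were above background on 1 of 2 arrays on either day, while LacZ cells stood at -4.12 and -4.16 on day 3 and -1.78 and -1.95 on day 10. For Rspo3, MGT cells stood at 0.99 and 0.92 on day 3 and 1.2 and 1.16 on day 10, and LacZ cells at -0.30 and -0.25 on day 3 and 1.28 and 1.55 on day 10. Slides held day 3 and day 10 separately, so slide and day cannot be told apart in the levels, while MGT and LacZ of 1 day shared a slide.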

How the results depend on the processing

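Counts of called members stayed within 1.5 times of the values given, except as follows. On day 3, MGT against LacZ gave 11 calls with no minimum fold and 13 each with array weights, with only the arrays compared, or without the day 29 iPSC2 arrays, against 7. The change of the MGT effect gave 9, 8 and 7 under the last 3, against 3. The comparison of neoCM with neoCF gave 27 with no minimum fold, against 17. Day 29 against day 9 gave 2 with array weights and 0 with only the arrays compared (limma), against 18; the cause was not tested. Leaving out 1 array gave 7 to 8 calls on day 3, 14 to 14 on day 5, 9 (without LacZ replicate 1, over 1.5 times fewer than 15) to 10 on day 7, 11 to 14 on day 10 and 13 to 14 on day 14 for MGT against LacZ, and 2 to 3 for the change of its effect. The ranges were 15 to 17 for neoCM against neoCF, 20 to 25 for iCM against neoCF, 18 to 19 for iCM against neoCM, 29 to 31 for iCM against iPSC-CM, 19 to 24 for iPSC-CM against neoCF and 19 to 24 against neoCM. They were 19 to 21 for iPSC1 against iPSC2, 14 to 22 for day 29 against day 9, 14 to 17 for CF D0 against neoCF and 19 to 20 for LacZ day 14 against CF D0. Without the day 29 iPSC2 arrays, neoCM against neoCF gave 11 higher and 10 lower. For iCM the counts were 11 and 16 against neoCF, 10 and 11 against neoCM and 14 and 17 against iPSC-CM. For iPSC-CM they were 10 and 16 against neoCF and 10 and 17 against neoCM. In the same fit, iPSC1 against iPSC2 gave 16 and 8, CF D0 against neoCF 2 and 19, and LacZ day 14 against CF D0 13 and 10. With a replicate block, 290 of 291 single calls held, and the pairing check gave no ground to use it: counts were 17 on day 10, 16 for neoCM against neoCF and 4 for the change of the MGT effect.

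Of 3406 single values under alternatives other than leaving out an array, 3159 kept direction and call, 223 lost the call and 24 turned round. With CF D0 in place of neoCF these were, for neoCM, Fzd10 0.42, Fzd4 1.29, Rspo2 1.22, Wnt10a -1.43, Wnt2 0.57, Wnt4 1.69 and Wnt9b 2.74. For iCM they were Fzd4 0.51, Wif1 2.68 and Wnt2 1.21. For iPSC-CM they were Fzd10 0.52, Fzd6 0.69, Wif1 2.21, Wnt2 1.56, Wnt4 2.52, Wnt9a 0.44 and Wnt9b 2.36. With normexp they were Wnt7a 0.13 (neoCM against neoCF) and Wnt6 -0.07 (iCM against neoCM). With iPSC1 alone they were Tcf7 -0.33 and Wif1 0.02 (against neoCF), Sfrp1 -0.17 (iCM against it) and Rspo2 0.82 (against neoCM), and with iPSC2 day 9 alone Wnt5a -0.48 (against neoCF). The causes were not tested. Leaving out 1 array kept 1152 of 1328 single values, and 176 lost the call. Scaling moved the median of all genes by over 0.1 in several comparisons, from -0.05 to 0.18 for neoCM against neoCF with normexp. Members near background, among them Wnt7a, Wnt2 and Wnt3, have only bounds in many groups.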
